A study of Mus musculus with 6 samples.

Results

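Matrix proteases and the TIMP inhibitors that restrain them were followed in freshly isolated mouse muscle stem cells (MuSCs), the satellite cells that rebuild damaged muscle fibres. The set holds 10 genes, chosen by gene symbol from the 22706 rows of the deposited RNA-seq table. It comprises the matrix metalloproteinases Mmp2 and Mmp14, the tissue inhibitors Timp1, Timp2 and Timp3, the disintegrin-type proteases Adamts1, Adamts4, Adamts5 and Adamts9, and Plau, which encodes urokinase. Each symbol matched 1 row, and all 10 genes passed the minimum mean of 5 normalized reads that 15915 genes passed.

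Bulk RNA of sorted MuSCs was compared among 3 groups of 2 biological replicates each. Control mice were wild type, mdx mice lack dystrophin through a mutation of the X-linked Dmd gene and serve as the model of Duchenne muscular dystrophy, and the group named Sirt6mKO/mdx carries the mdx mutation together with floxed Sirt6 alleles cut by a Cre inserted at Pax7. That Cre is constitutive and acts from the embryonic Pax7 lineage onward, so it is not limited to adult MuSCs. All 6 libraries are labelled C57BL/6, the background on which the study kept its mice after obtaining the mdx mutation from a C57BL/10ScSn source. The labels give neither age nor sex per library, and the study states that its in vivo work on these 3 genotypes used males. Cells came from limb and trunk muscle after exclusion of Sca1+, CD45+ and CD31+ cells and were taken as Integrin-a7+/CD34+ or by a fluorescent reporter, with the route not stated per library.

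The 6 libraries held about 4397632 to 9745218 gene-assigned reads, and 18983 to 20614 genes were above 0 in each. Values are normalized read counts, that is, reads divided by a size factor and rounded to whole numbers, so they compare a gene between libraries. Levels of different genes are compared only per kilobase of exon. The sorted cells carried the MuSC markers, with Pax7 at 2754 and 2932 (control), 2167 and 2521 (mdx) and 3236 and 2433 (Sirt6mKO/mdx). Sirt6 was at 37 and 30 normalized reads in the Sirt6mKO/mdx group, 33 and 40 in mdx and 41 and 32 in control. The floxed stretch holds only exons 4 to 6, and a value for the whole gene also counts reads outside it, so these values do not check the deletion and the group is referred to by its label, as the Sirt6mKO/mdx-labelled libraries. The control libraries held 16772 and 12950 normalized reads of Xist, the RNA of the inactive X chromosome, and 3 and 8 of the Y-linked Ddx3y, whereas the mdx libraries held 7 and 8 of Xist and 1024 and 1055 of Ddx3y, and the Sirt6mKO/mdx-labelled libraries held 33 and 34 of Xist and 1555 and 1767 of Ddx3y. The control libraries thus go against a male origin. In every comparison with control, the sex of the mice and the genotype therefore cannot be told apart.

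The muscle fibre and its satellite cell are wrapped in a matrix of laminin, collagen and proteoglycans that proteases must open before cells can divide, move or fuse. Metalloproteinases are made as inactive precursors. Mmp14 sits in the cell membrane and, with Timp2 as an adaptor, activates the secreted gelatinase Mmp2, while free TIMPs block the active enzymes. ADAMTS proteases cut versican and aggrecan, and among the TIMPs the matrix-bound Timp3 is the main inhibitor of that class. Urokinase turns plasminogen into plasmin on the cell surface, where its receptor Plaur holds it.

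RefSeq promoter windows of the genome build GRCm38.p6 were matched by symbol for 6 of the 10 genes, namely Mmp14, Timp1, Timp2, Timp3, Adamts1 and Adamts9. The 250 bases before the start site are printed for the genes whose levels differed most between groups, 5′ to 3′ on the gene's own strand. Capitals mark GGGCGG, the core of a GC box, read on either strand so that CCGCCC is the same motif, and TATAAA, the core of a TATA box.
Mmp14 (chr14:54431348-54431597, plus strand): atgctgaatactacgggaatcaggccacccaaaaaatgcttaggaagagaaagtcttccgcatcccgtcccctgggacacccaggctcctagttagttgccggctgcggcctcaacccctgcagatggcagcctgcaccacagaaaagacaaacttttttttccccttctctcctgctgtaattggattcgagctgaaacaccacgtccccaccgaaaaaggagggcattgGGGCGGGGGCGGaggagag
Timp1 (chrX:20869916-20870165, plus strand): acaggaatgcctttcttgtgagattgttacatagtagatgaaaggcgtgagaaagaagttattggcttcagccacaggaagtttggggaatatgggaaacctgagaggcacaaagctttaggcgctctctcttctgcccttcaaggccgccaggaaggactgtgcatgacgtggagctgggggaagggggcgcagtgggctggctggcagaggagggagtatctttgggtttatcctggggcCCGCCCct
Timp3 (chr10:86300162-86300411, plus strand): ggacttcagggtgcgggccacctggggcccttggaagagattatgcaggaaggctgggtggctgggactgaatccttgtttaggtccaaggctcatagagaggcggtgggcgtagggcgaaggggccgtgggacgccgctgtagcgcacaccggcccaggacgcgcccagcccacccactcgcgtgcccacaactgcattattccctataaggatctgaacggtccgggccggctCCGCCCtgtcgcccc
Adamts1 (chr16:85803114-85803363, minus strand): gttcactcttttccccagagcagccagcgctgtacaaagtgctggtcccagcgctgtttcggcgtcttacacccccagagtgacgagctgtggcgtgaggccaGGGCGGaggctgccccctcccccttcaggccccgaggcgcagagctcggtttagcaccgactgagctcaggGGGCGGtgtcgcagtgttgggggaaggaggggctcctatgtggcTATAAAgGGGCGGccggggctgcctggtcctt
Near its end the Mmp14 stretch holds a pair of abutting GGGCGG copies, with first bases at -19 and -13 from the start site. Timp1 held 1 copy at -8 on the opposite strand. On that strand too, Timp3 held 1 at -15 and, past the printed stretch, 1 at 14. Start sites of RefSeq can differ from the gene positions given below, and the end of the Timp3 stretch lies inside the gene as positioned there. Adamts1 held 3 copies, at -147, -76 and -25, the last lying 1 base downstream of the TATAAA at -32. Among 32851 windows of 300 bases, from 250 before to 50 after the start sites of 27025 genes, GGGCGG was present in 35.7% and TATAAA in 13.6%, and GGGCGG was present in all 6 windows of the set.

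The AP-1 factors Fos and Jun bind TGAGTCA, and Timp1 holds a near form of that motif just inside the transcript. A stretch of 30 bases around it is shown with the TGAGTAA in capitals, its first base lying 27 bases into the gene.
Timp1 (chrX:20870181-20870210, plus strand): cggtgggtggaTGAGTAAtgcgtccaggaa
TGAGTAA was present in 2.68% and TGAGTCA in 5.2% of the 32851 windows, and none of the 6 windows of the set held TGAGTCA. A match is a string of letters and was not tested as a binding site.

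Per kilobase of exon, Plau was the most abundant of the 10 genes in every group, with means of 884 normalized reads per kb in control, 569 in mdx and 666 in the Sirt6mKO/mdx-labelled libraries. In control the next was Adamts1 at 577, above Timp2 at 352 and Mmp2 at 314, whose ranges overlapped each other. Timp3 followed at 102, and Adamts4, Adamts5, Adamts9, Mmp14 and Timp1 lay between 61.1 and 39.4, each overlapping the next in that order. In mdx, Timp2 at 461 was second, Mmp2, Timp1 and Adamts1 lay between 186 and 156, Mmp14 was at 95.6, and Timp3 was lowest at 17.0. In the Sirt6mKO/mdx-labelled libraries, Adamts1 was again second at 317, followed by Timp2 at 261 and Mmp2 at 226, with the ranges of the latter pair overlapping. Timp1 at 120 and Adamts4 at 99.0 came next, and Timp3 at 24.2 and Adamts9 at 24.0 were at the bottom with overlapping ranges.

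**Figure D1:**
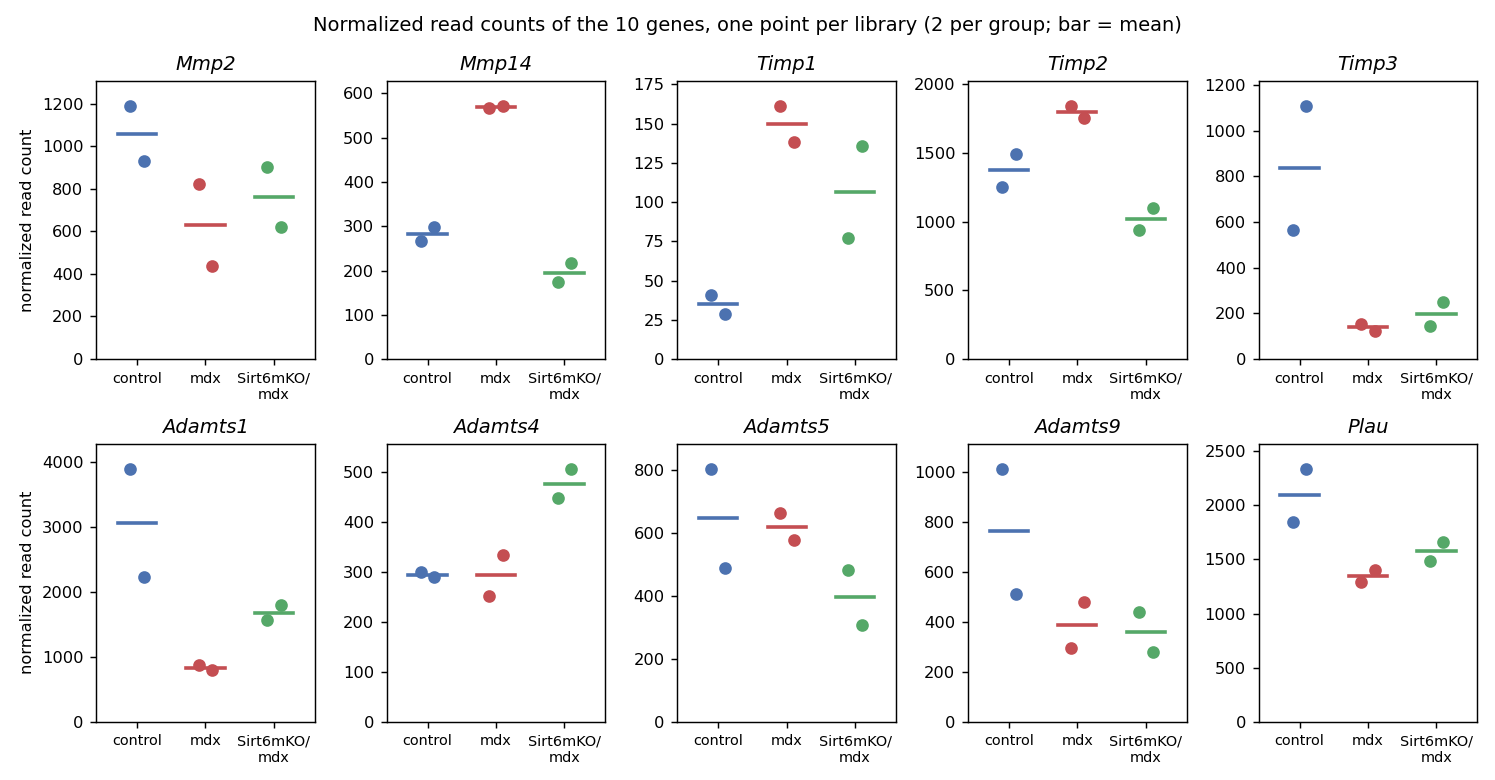
Normalized read count (vertical axis, starting at 0 and scaled separately for each gene) of the 10 genes in each group; each point is 1 library, and the bar is the mean of the 2 libraries. Mmp14 shows the narrow mdx pair at 568 and 571 above all other libraries, and Timp3 and Adamts1 show control libraries far above both mdx libraries.

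Mmp14 (chr14:54431604-54441258, plus strand), the membrane-type metalloproteinase, was 2.02-fold higher in mdx than in control and 2.92-fold higher in mdx than in the Sirt6mKO/mdx-labelled libraries. It was at 267 and 298 normalized reads in the control pair, 568 and 571 in the mdx pair, and 175 and 216 in the Sirt6mKO/mdx-labelled pair. The mdx pair stood above every other library, and the lowest pair was that labelled Sirt6mKO/mdx. Mmp14 rose in mdx against control by a log2 fold change of 1.01 (SE 0.25, 95% interval 0.48 to 1.55, adjusted p = 0.0131, limma). It fell by 1.55 on the log2 scale in the Sirt6mKO/mdx-labelled libraries against mdx (SE 0.25, adjusted p = 0.00152). Against control the difference was -0.53 (95% interval -1.07 to 0.00, adjusted p = 0.209), a difference that did not pass. These and all later fold changes are on the log2(value + 1) scale, and the RNA was taken from pools of cells, so that fewer cells of a type and less RNA per cell cannot be told apart. The gain in mdx was close to the minimum of a 2-fold change and was no longer called without control replicate 1 (log2 fold change 0.93), without mdx replicate 1 (adjusted p = 0.102) or without mdx replicate 2 (adjusted p = 0.0815), over a range of adjusted p from 0.00467 to 0.102 in all processing settings that left at least 2 residual degrees of freedom. The difference between the Sirt6mKO/mdx-labelled libraries and mdx was not called without Sirt6mKO/mdx replicate 1 (log2 fold change -1.40, adjusted p = 0.0625, range over those settings 0.00031 to 0.0999).

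Mmp2 (chr8:92827328-92853417, plus strand), the gelatinase that Mmp14 activates, was at 1187 and 928 in the control pair, 820 and 437 in the mdx pair, and 902 and 622 in the Sirt6mKO/mdx-labelled pair. The first replicate of each group was the higher one. The mdx libraries lay further from each other than the higher of them lay from the lower control library. No comparison was called, with log2 fold changes of -0.81 for mdx against control (adjusted p = 0.0856) and -0.49 for the Sirt6mKO/mdx-labelled libraries against control (adjusted p = 0.36). Against mdx the Sirt6mKO/mdx-labelled libraries differed by 0.32 (95% interval -0.33 to 0.98), and by -0.30 when libraries were scaled to equal totals. Relative to the median of all genes tested in that scaling, Mmp2 was at 0.28.

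Mmp2 is also made by the fibro-adipogenic progenitors of muscle, Sca1+ cells that the sort was set to remove, and some of their markers varied between replicates. Ly6a, which encodes Sca1, was at 3 and 9 in the control pair, 79 and 21 in the mdx pair, and 65 and 15 in the Sirt6mKO/mdx-labelled pair, and was called higher in mdx than in control (log2 fold change 2.73, adjusted p = 0.0363). Pdgfra was at 15 and 59 in the control pair, 195 and 18 in the mdx pair, and 142 and 19 in the Sirt6mKO/mdx-labelled pair. Lum was at 82 and 82, then 315 and 64, then 316 and 102. In the mdx and Sirt6mKO/mdx groups, replicate 1 was thus higher in Ly6a, in Pdgfra, in Lum and in Mmp2. The summed level of all 10 fibro-adipogenic markers ranged from 29357 to 35876 in control, 35866 to 46345 in mdx and 27015 to 34109 in the Sirt6mKO/mdx-labelled libraries, and no marker was at 0 in every library. Ly6a, Pdgfra and Lum made up only a small part of each sum. Such a sum adds genes of different length and level, so it follows its most abundant genes. It does not measure a number of cells and cannot be set against the sum of another list. Of the 10, Ly6a and Col1a1 were called higher in mdx than in control, and Col1a1 was the 1 called lower in the Sirt6mKO/mdx-labelled libraries than in mdx (log2 fold change -1.08, adjusted p = 0.023). Col1a1, a chain of type I collagen, was at 634 and 862, then 2013 and 1898, then 1136 and 747. Its highest pair was thus mdx, as for Mmp14 and Timp2, whereas Mmp2 had its lowest mean in mdx. The part of these cells in the levels of Mmp2, Mmp14 and Timp2 was not tested. Without mdx replicate 1 the log2 fold change of Mmp2 in mdx against control was -1.26 and called (adjusted p = 0.0472, range over those settings 0.0333 to 0.543), and without mdx replicate 2 it was -0.36.

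Timp1 (chrX:20870166-20874735, plus strand), a secreted inhibitor of many metalloproteinases, was the member with the largest rise in mdx. It was at 41 and 29 normalized reads in the control pair, 161 and 138 in the mdx pair, and 77 and 136 in the Sirt6mKO/mdx-labelled pair. Every library with the mdx mutation was above both control libraries, and the pair labelled Sirt6mKO/mdx lay below the mdx pair. Timp1 rose in mdx by a log2 fold change of 2.08 (SE 0.40, 95% interval 1.24 to 2.92, adjusted p = 0.00241) and in the Sirt6mKO/mdx-labelled libraries against control by 1.54 (SE 0.40, adjusted p = 0.0251). Between the Sirt6mKO/mdx-labelled libraries and mdx the difference was -0.54 (95% interval -1.38 to 0.30, adjusted p = 0.431). Timp1 lies on the X chromosome, and the control libraries, which differ from the others in sex-linked transcripts, are the low ones in both calls. It is nested in an intron of Syn1, which runs on the opposite strand and held only 7 to 22 normalized reads in the 6 libraries. Timp1 was the most thinly read member, with about 27 reads in its lowest library, where counting error alone gives a coefficient of variation of 19.2%. The rise in mdx was not called without mdx replicate 1 (adjusted p = 0.0546, range over those settings 0.000829 to 0.0644). That of the Sirt6mKO/mdx-labelled libraries was still called without control replicate 1 and was not called without control replicate 2, mdx replicate 1, mdx replicate 2, Sirt6mKO/mdx replicate 1 or Sirt6mKO/mdx replicate 2 (log2 fold changes from 1.14 to 1.95, adjusted p over those settings 0.0152 to 0.296), nor with equal library totals (0.95, adjusted p = 0.11).

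Timp3 (chr10:86300372-86349506, plus strand), the TIMP that stays bound to the matrix, was lower in both groups with the mdx mutation. It was at 563 and 1106 normalized reads in the control pair, 155 and 122 in the mdx pair, and 145 and 249 in the Sirt6mKO/mdx-labelled pair. Both control libraries were above all other libraries, although they differed between themselves by more than the other pairs did. Timp3 fell by 2.51 on the log2 scale in mdx (SE 0.34, 95% interval -3.24 to -1.78, adjusted p = 0.000169), which was the largest change of any member, with control 5.7-fold above mdx. It also fell by 2.05 in the Sirt6mKO/mdx-labelled libraries against control (SE 0.34, adjusted p = 0.00172). The Sirt6mKO/mdx-labelled libraries differed from mdx by 0.46 (95% interval -0.27 to 1.19, adjusted p = 0.434), and by -0.16 with libraries scaled to equal totals. Relative to the median of all genes tested in that scaling, Timp3 was at 0.42. Of its 8144 exonic bases, 21.3% also belong to exons of Syn3 on the opposite strand, which held 9 to 38 normalized reads. Reads that overlapped more than 1 gene were dropped in counting, and since the use of strand was not given in the sources used here, it is not known whether reads from the shared bases were kept for Timp3. The fall in mdx was called without each library in turn, and that of the Sirt6mKO/mdx-labelled libraries was not called without Sirt6mKO/mdx replicate 1 (log2 fold change -1.66, adjusted p = 0.072, range over those settings 0.000114 to 0.121).

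Timp2 (chr11:118301069-118355740, minus strand), the adaptor in the activation of Mmp2, was the most abundant TIMP. It was at 1255 and 1491 in the control pair, 1840 and 1755 in the mdx pair, and 936 and 1098 in the Sirt6mKO/mdx-labelled pair. The mdx pair was again highest and the pair labelled Sirt6mKO/mdx lowest, with no overlap between any of the groups. None of the differences was called, since mdx differed from control by 0.39 (95% interval -0.14 to 0.92, adjusted p = 0.304) and the Sirt6mKO/mdx-labelled libraries differed from control by -0.43 (adjusted p = 0.311). The difference between the Sirt6mKO/mdx-labelled libraries and mdx lay just outside both limits, at -0.83 (SE 0.25, adjusted p = 0.0503). Scaled to equal library totals it was -1.45 and called (adjusted p = 0.00369, range over those settings 0.00369 to 0.343).

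Within a library, the TIMP genes can be set against each other per kilobase of exon without any scaling between libraries. Timp2 made up 60.5% to 73.6% of the summed TIMP level in all 6 libraries. Timp3 gave 15.8% and 24.6% in the control pair, 2.83% and 2.41% in the mdx pair, and 5.16% and 6.57% in the Sirt6mKO/mdx-labelled pair. Timp1 gave 10.6% and 5.93% in the control pair, 27.0% and 25.0% in the mdx pair, and 25.2% and 32.9% in the Sirt6mKO/mdx-labelled pair. Timp3 was thus above Timp1 in both control libraries and below it in the other 4, where the ratio of Timp1 to Timp3 per kilobase ranged from 4.87 to 10.4. The ratio of Mmp14 to Timp2 per kilobase was 0.139 and 0.131 in the control pair, 0.202 and 0.213 in the mdx pair, and 0.122 and 0.129 in the Sirt6mKO/mdx-labelled pair, so both genes were highest in mdx and Mmp14 the more so. With 2 libraries a group no exact test of such a ratio can reach 0.05, and these ratios were given no test.

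**Figure D2:**
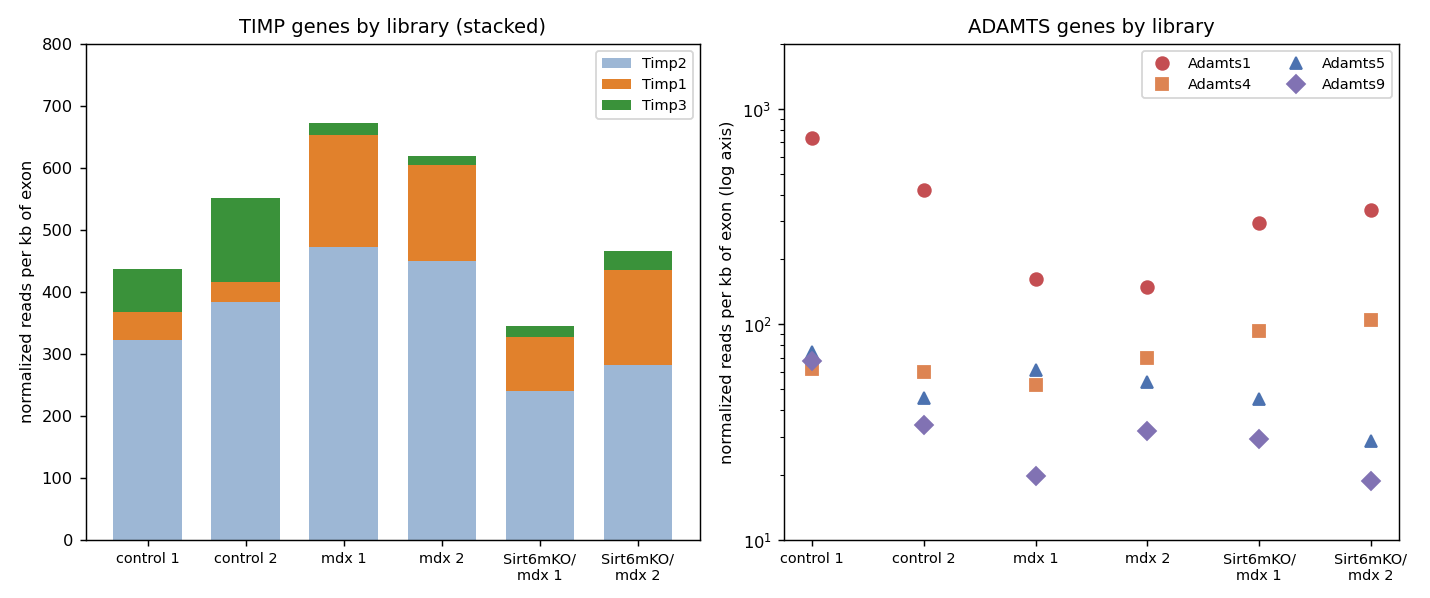
Left, normalized reads per kb of exon (stacked bars from 0) of Timp2, Timp1 and Timp3 in each of the 6 libraries; right, normalized reads per kb of exon (log axis) of Adamts1, Adamts4, Adamts5 and Adamts9. The Timp3 part is visible mainly in the control libraries, at 15.8% and 24.6% of the bar, and Adamts1 is the uppermost ADAMTS point in every library.

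Adamts1 (chr16:85793827-85803113, minus strand), a secreted protease of versican and aggrecan, was the most abundant ADAMTS of the set in every library. It was at 3890 and 2226 normalized reads in the control pair, 866 and 791 in the mdx pair, and 1568 and 1793 in the Sirt6mKO/mdx-labelled pair. The groups did not overlap, with control highest, the Sirt6mKO/mdx-labelled libraries between and mdx lowest. Adamts1 fell by 1.83 on the log2 scale in mdx (SE 0.29, 95% interval -2.44 to -1.21, adjusted p = 0.000576), with control 3.55-fold above mdx. It rose in the Sirt6mKO/mdx-labelled libraries against mdx by 1.02 (SE 0.29, 95% interval 0.40 to 1.63, adjusted p = 0.0402), and by 0.39 without a call when libraries were scaled to equal totals. Against control the Sirt6mKO/mdx-labelled libraries differed by -0.81 (95% interval -1.43 to -0.20, adjusted p = 0.0969), which became -0.41 without control replicate 1, -1.21 and called without control replicate 2 (adjusted p = 0.0404, range over those settings 0.00438 to 0.403), and -1.42 and called with equal library totals. The fall in mdx was called without each library in turn. The rise was not called without mdx replicate 1 (adjusted p = 0.163), mdx replicate 2 (0.201), Sirt6mKO/mdx replicate 1 (0.224) or Sirt6mKO/mdx replicate 2 (0.238), with adjusted p from 0.0162 to 0.375 over those settings.

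Immediate early genes, which are switched on within minutes of a stimulus and also during tissue dissociation, were lowest in mdx, as Adamts1 was. The summed level of the 18 genes on that list ranged from 85805 to 89307 in control, 11052 to 13111 in mdx and 74412 to 76086 in the Sirt6mKO/mdx-labelled libraries. All 18 were called lower in mdx than in control and all 18 were called higher in the Sirt6mKO/mdx-labelled libraries than in mdx, whereas 3 of the 18 were called lower in the Sirt6mKO/mdx-labelled libraries than in control, with a median log2 fold change of -0.19 over the list. Fos, for example, was at 10775 and 14930, then 1654 and 1921, then 8993 and 10412. The part of this response, or of the isolation, in the levels of Adamts1 and Timp3 was not tested.

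Adamts5 (chr16:85858170-85901125, minus strand), the main aggrecan-cutting protease of cartilage, is the neighbour of Adamts1. The genes are 55056 bases apart on the same strand with 0 annotated protein-coding genes between them. Adamts5 was at 804 and 490 in the control pair, 663 and 579 in the mdx pair, and 483 and 309 in the Sirt6mKO/mdx-labelled pair. The mdx values lay within the control range, with a log2 fold change of -0.02 (95% interval -0.64 to 0.61). The Sirt6mKO/mdx-labelled libraries were lowest, at -0.68 against mdx (adjusted p = 0.162) and -0.70 against control (adjusted p = 0.158). With libraries scaled to equal totals both were called, at -1.31 against mdx (adjusted p = 0.00622, range over those settings 0.00622 to 0.618) and -1.30 against control (adjusted p = 0.00631, range 0.00631 to 0.668). Per kilobase, the ratio of Adamts1 to Adamts5 was 9.85 and 9.25 in the control pair, 2.66 and 2.78 in the mdx pair, and 6.61 and 11.8 in the Sirt6mKO/mdx-labelled pair. The mdx ratios were below those of the other 4 libraries.

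Adamts4 (chr1:171250421-171260637, plus strand), a further aggrecan-cutting protease, was at 299 and 289 in the control pair, 251 and 334 in the mdx pair, and 447 and 505 in the Sirt6mKO/mdx-labelled pair. It was the only member of the 10 whose Sirt6mKO/mdx-labelled pair was the highest. The log2 fold changes of 0.71 against mdx (95% interval 0.17 to 1.26, adjusted p = 0.0944) and 0.69 against control (adjusted p = 0.108) did not pass, and mdx and control overlapped, at -0.02 (95% interval -0.56 to 0.52). With libraries scaled to equal totals the differences shrank to 0.09 against mdx (adjusted p = 0.867) and 0.09 against control (adjusted p = 0.869).

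Adamts9 (chr6:92772699-92943492, minus strand), a large versican-cutting protease, was at 1014 and 514 in the control pair, 297 and 479 in the mdx pair, and 440 and 281 in the Sirt6mKO/mdx-labelled pair. Both control libraries were above the other 4, but they were far apart themselves. The differences from control were -0.93 in mdx (adjusted p = 0.0741) and -1.04 in the Sirt6mKO/mdx-labelled libraries (95% interval -1.76 to -0.31, adjusted p = 0.0731), and neither was called. They rested on which control library was kept. Without control replicate 2 both were called, at -1.42 in mdx (adjusted p = 0.0239, range over those settings 0.0239 to 0.491) and -1.53 in the Sirt6mKO/mdx-labelled libraries (adjusted p = 0.0434, range 0.0036 to 0.479), and without control replicate 1 they were -0.45 and -0.55. Equal library totals also gave a call in the latter comparison, at -1.64. The Sirt6mKO/mdx-labelled libraries differed from mdx by -0.10 (95% interval -0.83 to 0.63). Exons of A730049H05Rik and Gm15737 on the opposite strand share 12.0% of its exonic bases, and A730049H05Rik was at 107 and 62 in control against 27 to 37 in the other 4 libraries.

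Among the 4 ADAMTS genes of the set, Adamts1 made up 78.2% and 75.0% of the summed level per kilobase in the control pair, 55.1% and 49.1% in the mdx pair, and 63.9% and 68.9% in the Sirt6mKO/mdx-labelled pair. The summed level itself was 938 and 559 normalized reads per kb in the control pair, 297 and 304 in the mdx pair, and 463 and 490 in the Sirt6mKO/mdx-labelled pair.

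Plau (chr14:20836662-20843388, plus strand), urokinase, was at 1847 and 2336 in the control pair, 1288 and 1404 in the mdx pair, and 1490 and 1664 in the Sirt6mKO/mdx-labelled pair. The groups did not overlap and had the order of Adamts1, but the steps were smaller. The log2 fold changes were -0.63 in mdx against control (95% interval -1.17 to -0.08, adjusted p = 0.11) and -0.40 in the Sirt6mKO/mdx-labelled libraries against control (adjusted p = 0.367). Against mdx the value was 0.23 (95% interval -0.32 to 0.77) for the Sirt6mKO/mdx-labelled libraries, and -0.40 when libraries were scaled to equal totals. None of these was called. Relative to the median of all genes tested, the value with equal totals was 0.18.

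**Figure D3:**
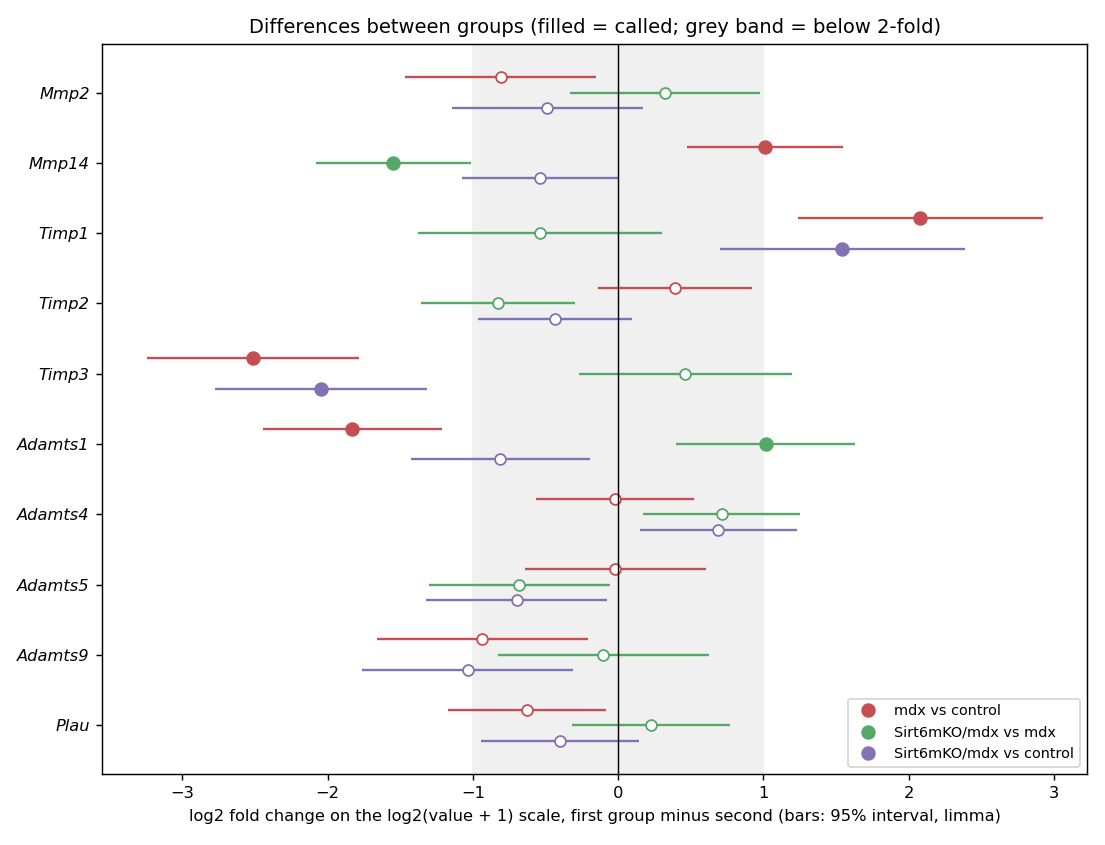
Log2 fold change on the log2(value + 1) scale (horizontal axis) of each of the 10 genes in the 3 comparisons, with 95% intervals from limma; filled points were called, open points were not, and the grey band marks changes below 2-fold. Timp3 at -2.51 and Timp1 at 2.08 in mdx against control lie farthest from 0, and most open points lie within the grey band.

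Over the 10 genes, 4 were called in mdx against control, where 14.2% of all genes tested were called. The 2 called higher, Mmp14 and Timp1, stand beside 6.89% of all genes called higher, and the 2 called lower, Timp3 and Adamts1, beside 7.34%. The groups did not overlap for 8 of the 10, where 57.0% of all genes did not overlap, and the median log2 fold change was -0.32 beside 0.00 over all genes tested.

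In the Sirt6mKO/mdx-labelled libraries against mdx, 2 of the 10 were called, Adamts1 higher and Mmp14 lower, where 8.17% of all genes were called, 5.62% higher and 2.54% lower. The groups did not overlap for 7 of the 10 (56.0% of all genes), and the median was 0.06 beside 0.02. Against control, the Sirt6mKO/mdx-labelled libraries again had 2 of the 10 called, Timp1 higher and Timp3 lower, where 7.87% of all genes were called, 5.19% higher and 2.68% lower. All 10 had no overlap there (51.6% of all genes), and the median was -0.51 beside 0.01. The comparisons share libraries, mdx entering both comparisons that name it and control likewise.

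Scaling mattered for the Sirt6mKO/mdx-labelled libraries. With all libraries set to equal totals, the median of all genes tested was -0.58 in that group against mdx and -0.58 against control, and 0.03 in mdx against control. Relative to that median, Mmp14 was at -1.59 and Adamts1 at 0.97 against mdx, and Timp1 was at 1.53 and Timp3 at -2.07 against control. In that scaling 3 members were called against mdx, all lower (Mmp14, Timp2 and Adamts5), and 8 against control, all lower, which added Mmp2 (-1.09), Mmp14 (-1.14), Timp2 (-1.04), Plau, Adamts1, Adamts5 and Adamts9 to Timp3.

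The remaining genes of the same pathway were taken from lists set by family, chosen with earlier results of these data known. Of 15 other metalloproteinases 8 could be tested. In mdx against control 2 were called higher, Mmp11 and Mmp15, none was called between the Sirt6mKO/mdx-labelled libraries and mdx, and 1, Mmp12, was called higher in the Sirt6mKO/mdx-labelled libraries than in control. Mmp11, or stromelysin-3, was at 53 and 23 in the control pair, 115 and 117 in the mdx pair, and 50 and 69 in the Sirt6mKO/mdx-labelled pair, and rose in mdx by 1.70 (adjusted p = 0.0191). Mmp15, a membrane-type relative of Mmp14, held 11 and 16 in control against 91 and 93 in mdx and 37 and 47 in Sirt6mKO/mdx, and rose in mdx by 2.70 (adjusted p = 0.00183). Mmp12, the macrophage elastase, held 0 and 1 in the control pair, 4 and 2 in the mdx pair, and 9 and 169 in the Sirt6mKO/mdx-labelled pair, so its call rests on 1 library. The leukocyte gelatinase Mmp9 held 0 to 7 normalized reads, too few to be tested.

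Of 20 other ADAMTS and ADAMTS-like genes, 16 were tested, and 1 was called higher and 3 lower in mdx. Adamts2, which trims the ends of procollagen, was at 23 and 34 in the control pair, 127 and 173 in the mdx pair, and 60 and 61 in the Sirt6mKO/mdx-labelled pair, and rose in mdx by 2.36 (adjusted p = 0.0012). Adamts10, a protease tied to fibrillin microfibrils, was at 2050 and 1796, then 724 and 777, then 2681 and 2022. It fell by 1.35 in mdx (adjusted p = 0.00239) and was the 1 gene of this list called higher in the Sirt6mKO/mdx-labelled libraries than in mdx, by 1.63 (adjusted p = 0.00116). Adamts20 fell by 1.28 in mdx and fell by 1.49 in the Sirt6mKO/mdx-labelled libraries against control (adjusted p = 0.00383 and 0.00237), and Adamtsl4 fell by 1.02 in mdx (adjusted p = 0.0488).

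Of the plasminogen system around Plau, Plaur, the urokinase receptor, was at 147 and 134, then 48 and 21, then 90 and 106, and fell by 2.11 in mdx (adjusted p = 0.0034) and rose in the Sirt6mKO/mdx-labelled libraries against mdx by 1.59 (adjusted p = 0.0306). Plgrkt, a plasminogen receptor, rose in mdx by 1.13 (adjusted p = 0.0256). Plat, the tissue-type activator, was at 404 to 658 in the 6 libraries and was not called.

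Among 8 ADAM sheddases, which cut proteins off the cell surface, 3 were called higher in mdx. Adam19 was at 62 and 84 in the control pair, 443 and 381 in the mdx pair, and 429 and 296 in the Sirt6mKO/mdx-labelled pair, and rose by 2.49 in mdx and by 2.29 in the Sirt6mKO/mdx-labelled libraries against control (adjusted p = 4.21e-05 and 0.000195). Adam12, a marker of regenerating muscle, rose in mdx by 1.46 (adjusted p = 0.00363) and Adam10 by 1.02 (adjusted p = 0.0177). None of the 8 was called between the Sirt6mKO/mdx-labelled libraries and mdx.

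Of 6 genes of protease activation and uptake, the convertase Pcsk5 was at 385 and 258 in the control pair, 60 and 28 in the mdx pair, and 159 and 104 in the Sirt6mKO/mdx-labelled pair. It fell by 2.91 in mdx (adjusted p = 0.000165) and rose in the Sirt6mKO/mdx-labelled libraries against mdx by 1.62 (adjusted p = 0.02). Lrp1, the scavenger receptor that takes up proteases bound to their inhibitors, was at 7048 and 6774, then 1746 and 2398, then 3691 and 2724, and fell by 1.76 in mdx (adjusted p = 0.00139) and fell by 1.12 in the Sirt6mKO/mdx-labelled libraries against control (adjusted p = 0.0345). Furin, the convertase that matures Mmp14 and ADAMTS proteins, was at 359 to 628 in the 6 libraries and was not called.

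Among the substrates, 5 of 6 genes on a list of hyaluronan-binding proteoglycans and their partners were tested. Vcan, the versican that Adamts1, Adamts4, Adamts5 and Adamts9 cut, was at 174 and 341 in the control pair, 745 and 1057 in the mdx pair, and 187 and 209 in the Sirt6mKO/mdx-labelled pair. It rose in mdx by 1.86 (SE 0.31, adjusted p = 0.000972) and fell by 2.16 in the Sirt6mKO/mdx-labelled libraries against mdx (adjusted p = 0.000576). No other gene of the list was called, and the median log2 fold changes of the 5 tested genes in these comparisons were 0.42 and 0.72. Vcan was therefore highest in the group in which Adamts1 was lowest. The remaining inhibitors, 2 of 3 of which were tested, had no call, and Reck, the membrane-anchored inhibitor of metalloproteinases, was at 82 to 126 in the 6 libraries.

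Markers of other cells that could sit in the sorted pool were low or varied as follows. The 8 endothelial markers summed to 774 to 919 in control, 413 to 434 in mdx and 620 to 655 in the Sirt6mKO/mdx-labelled libraries, with 2 of 6 tested genes called lower in mdx and Pecam1, which encodes the CD31 that the sort was set to exclude, at 199 and 86, then 20 and 47, then 67 and 114. Timp3 and Adamts1, both of which endothelial cells also make, were highest in control, where the sums of these markers and of the immediate early genes were also highest. Within the control pair, Pecam1 and Adamts1 were higher in replicate 1, whereas Timp3 was higher in replicate 2. The 7 macrophage and leukocyte markers found in the table summed to 107 to 132, 93 to 100 and 166 to 188, and Ptprc, which encodes CD45, was at 0 and 0, 5 and 3, and 3 and 19. Of the 4 that were tested, Cd68, a lysosomal marker of macrophages, was at 86 and 88, 30 and 26, and 107 and 56, and was called lower in mdx than in control. Lyz2, the lysozyme of myeloid cells, was at 0 and 14, 47 and 26, and 39 and 67, and was called higher than in control both in mdx and in the Sirt6mKO/mdx-labelled libraries. The 8 smooth muscle and pericyte markers summed to 8290 to 9105, 7295 to 7989 and 4601 to 4724. Most of that sum in every library was Notch3, at 7831 and 6184, 4041 and 5382, and 3049 and 2789. Of the 8 markers, Acta2 was called higher (log2 fold change 1.18) and Abcc9 lower (-1.43) in mdx than in control, and Notch3 lower in the Sirt6mKO/mdx-labelled libraries than in control (-1.25). The 6 tenocyte markers summed to 147 to 186, 148 to 439 and 160 to 249, with 2 called lower in mdx than in control although the sums of these groups overlapped, and 1 called higher in the Sirt6mKO/mdx-labelled libraries than in control. Schwann cell markers summed to 55 to 59, 60 to 81 and 23 to 57, with 0 of 3 tested called in any comparison. Myofibre markers summed to 7179 to 10144, 1539 to 5021 and 5503 to 11410, with 5 of 8 called lower in mdx and 4 of 8 called higher in the Sirt6mKO/mdx-labelled libraries than in mdx. The 9 MuSC markers summed to 27277 to 29029, 22279 to 28966 and 21231 to 25422. Of these only Sdc4, the proteoglycan syndecan-4, was called, at 7692 and 6224, 1100 and 1049, and 2753 and 2822, lower than in control in both other groups and higher in the Sirt6mKO/mdx-labelled libraries than in mdx. The 6 cell cycle genes summed to 732 to 901, 1088 to 1579 and 646 to 1011, with 4 called higher in mdx than in control and 2 lower in the Sirt6mKO/mdx-labelled libraries than in mdx. No listed marker was at 0 in all 6 libraries, and the part of any of these cell types in the levels of the 10 genes was not tested.

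For the 4 members called in at least 1 comparison, the genes with the most similar profiles over the 6 libraries were looked up among 9666 genes with a mean of at least 50, as the Euclidean distance between log2 profiles after each gene's mean was taken off. Timp1 had the closest match, Anxa1, the glucocorticoid-induced annexin A1, at a distance of 0.133, where the median over all genes was 2.43. Anxa1 was at 532 and 362 in the control pair, 2079 and 1891 in the mdx pair, and 1018 and 1696 in the Sirt6mKO/mdx-labelled pair. A shared order of replicates follows from the choice by likeness over the same libraries. Timp1 had about 27 reads in its lowest library, with a counting error of 19.2%, so small differences in distance cannot be read. Vstm2a and Gpx8 followed at 0.371 and 0.385.

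Adamts1 was most like Cdkn1a, the cell cycle inhibitor p21, at 0.274, with Cdkn1a at 952 and 531 in the control pair, 206 and 178 in the mdx pair, and 449 and 413 in the Sirt6mKO/mdx-labelled pair. Rela, a subunit of NF-kB, and Odc1, the first enzyme of polyamine synthesis, followed at 0.315 and 0.333. Mmp14 was most like Skp2, an F-box protein that targets cell cycle inhibitors, at 0.235, with Skp2 at 128 and 147, then 240 and 258, then 88 and 110, and the zinc finger genes Zfp866 and Zfp41 followed at 0.27 and 0.299. Timp3 had no match as close, with Zfand2a, Anxa3 and Ubb at 0.683, 0.706 and 0.811. Anxa3 was at 536 and 602 in the control pair, 102 and 108 in the mdx pair, and 101 and 149 in the Sirt6mKO/mdx-labelled pair. These likenesses rest on 6 libraries in 3 groups and describe how far the levels of each gene differed between libraries, and nothing more.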

How the data were processed

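RNA of FACS-isolated MuSCs was depleted of ribosomal RNA and sequenced on an Ion platform, 2 libraries per group. Per the study's methods and the submitters' processing notes, reads were trimmed by the authors using Reaper and mapped to mm10 with STAR (2.4.2a in the notes), and unique reads were counted per gene with featureCounts 1.4.5-p1 and normalized with DESeq2 1.6.0. The strand setting was not given in the sources used here. The deposited values, handled here as a score, are read counts divided by size factors and rounded to whole numbers, so no count test was run.

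Size factors (0.537 to 1.527) were recovered from the spacing of the rounded values, which gave approximate reads per library and gene. Genes with a mean of at least 5 over the 6 libraries were tested with limma 3.58.1 (R 4.3.3) on log2(value + 1), all 6 libraries in 1 fit with a variance trend and no block, and adjusted by Benjamini-Hochberg over 15915 genes. A gene was called at an adjusted p of at most 0.05 and an absolute log2 fold change of at least 1. The 2-sided p-values rest on a variance pooled within groups over all 6 libraries and drawn toward a trend over all genes tested. They therefore do not measure the spread between the 2 libraries of a group alone. The procedure was tested on simulated data. Gene positions are those of the deposited table (mm10), exon lengths and overlaps came from GENCODE M21 (GRCm38, 98.5% of 22706 IDs matched), and promoters from RefSeq (GRCm38.p6). The 4 motifs were chosen after the promoters had been read.

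All 10 members were described; other pathway genes were named where called with a mean of at least 50 (at most 4 per list and comparison), apart from Mmp9, Mmp12, Mmp15, Plat, Furin, Reck, Fos, Pdgfra, Lum, Ly6a, Pecam1, Ptprc, Lyz2 and the overlapping genes, which were chosen after their values were seen. The members and lists were chosen with earlier results of these data known. Alternatives covered the pseudocount (0.1 and 5), the minimum mean (none and 50), scaling, the prior variance, a replicate block, GC content, the libraries in the fit and leaving out each library. Some genes of the lists are not reported here.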

Additional observations from a re-analysis of the deposited data

How the results depend on the processing

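With 2 libraries per group, calls depended on how the spread was shared between genes. Among the log2 fold changes of single members under alternatives, 468 kept direction and side of the threshold, 44 kept direction but lost the call, 14 gained one and 14 changed sign. Alternatives that altered only the variance, the genes tested, the block or a group outside the comparison left the fold change itself as it was. Direction could not change there, and most members had no call to lose in a comparison, so the 468 is not a measure of stability. With no minimum mean, 0 members were called in each comparison (5, 4 and 5 of the 10 at an unadjusted p under 0.05) and 406, 19 and 2 genes in all, against 2265, 1300 and 1253. With 1 prior variance for all genes, 0 members were called in each comparison (4, 3 and 2 at an unadjusted p under 0.05) and 541, 0 and 87 genes (3156 genes at an unadjusted p under 0.05 where limma called 0). In the Sirt6mKO/mdx-labelled libraries against mdx, a pseudocount of 0.1 left 1 member called, and against control a fit on the libraries of the 2 groups alone left 1.

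Equal library totals gave 8 members called in the Sirt6mKO/mdx-labelled libraries against control, all lower, and 3148 genes (455 higher and 2693 lower, against 826 and 427 in the deposited scaling); against mdx it gave 3411 genes (479 higher and 2932 lower, against 895 and 405). Signs changed there against mdx for Mmp2 (-0.30), Plau (-0.40) and Timp3 (-0.16), and in mdx against control for Adamts4 (0.001) and Adamts5 (0.004). Relative to the median of all genes tested in that scaling, each kept its sign. Mmp2 was then at 0.28, Plau at 0.18 and Timp3 at 0.42 against mdx, and Adamts4 at -0.025 and Adamts5 at -0.022 in mdx against control. Adamts4 in mdx against control was also 0.22 after centring by GC content. Equal upper quartiles ended the call of Mmp14 in mdx (log2 fold change 0.99).

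Leaving out each library in turn, members called ranged from 3 to 5 in mdx against control, 0 to 2 in the Sirt6mKO/mdx-labelled libraries against mdx and 0 to 3 against control, and genes called from 939 to 2356, 203 to 1475 and 213 to 1314. A lone library was then assumed to vary like the other groups. Signs changed for Adamts5 (-0.38 to 0.34) and Adamts4 (-0.23 to 0.18) in mdx against control, and for Mmp2 (-0.13 to 0.78) and Adamts9 (-0.45 to 0.24) in the Sirt6mKO/mdx-labelled libraries against mdx. An alternative chosen after seeing the data left out both libraries with high Pdgfra, mdx replicate 1 and Sirt6mKO/mdx replicate 1. With 1 residual degree of freedom, limma then called 0 members and 0 genes in each comparison (1932, 975 and 1685 genes at an unadjusted p under 0.05), which says nothing about stability, and Adamts4 in mdx was at 0.18.

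Replicate numbers did not pair the libraries: correlations of same-numbered deviations over 15915 genes were -0.13, 0.12 and 0.01. With the replicate number as a block, 4, 2 and 3 members and 2415, 1510 and 1404 genes were called, and Adamts9 became called in the Sirt6mKO/mdx-labelled libraries against control (adjusted p = 0.0399, range over the settings with at least 2 residual degrees of freedom 0.0036 to 0.479). With the mdx numbers crossed, 4 members and 2372 genes were called in mdx against control. The cause of each of these shifts was not tested.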
